A study of Mus musculus with 4 samples.

Results

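The genes described here are cyclins, cyclin-dependent kinases (CDKs), their inhibitors and partners, and genes named Cdc for cell division cycle. They were chosen by symbol among the 21887 protein-coding genes of the mouse RefSeq annotation (GRCm38.p6, the coordinates of mm10): names starting with Cdk, with Cdc and a digit, or with Ccn and a letter followed by at most 1 digit. This gave 99 genes. Chromatin immunoprecipitation sequencing (ChIP-seq) of SHP (small heterodimer partner, encoded by Nr0b2) had been carried out on jejunum and ileum of SHP-knockout mice and of wild-type C57BL/6 mice as controls. Mice of both genotypes were 8 to 12 weeks old, were fasted for 12 h and were refed normal chow for 4 h before collection, so all groups share the refed state and no fasted group was compared. The protocols name 3 independent sets for the ChIP and its input, with 3 mice pooled in every set. The knockout immunoprecipitation had a list of 7 peaks and the wild-type immunoprecipitation a list of 5775 peaks. There was 1 list for each genotype and read depth was unknown. The lists had been filtered differently, so neither their sizes nor their values measure a difference between genotypes. The input samples were not analysed here. Peak lists hold no expression values, so the tissue could not be checked against markers, and peaks from bulk tissue do not tell which intestinal cells carried them.

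SHP is an orphan nuclear receptor without a DNA-binding domain. It reaches chromatin through other transcription factors and recruits corepressors. CDKs are kinases that need a cyclin partner. One branch drives the cell cycle: D-type cyclins act with CDK4 and CDK6 and E-type cyclins with CDK2 around entry into DNA synthesis, and A- and B-type cyclins act with CDK2 and CDK1 through DNA synthesis and mitosis. The other branch works on transcription, where CDK7, CDK8, CDK9, CDK12, CDK13 and their cyclins phosphorylate RNA polymerase II and its cofactors. In the intestine, dividing cells lie in the crypts, while the cells of the villi have left the cycle.

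SHP peaks were found at 45 of the 99 genes (45.5%, 95% exact binomial interval 35.4 to 55.8). A gene was counted as occupied where the summit of a wild-type peak lay within 5 kb of either end of the gene. Over all protein-coding genes the same rule called 5778 of 21887, which is 26.4%. Among 19515 genes with a curated RefSeq protein, chemosensory receptors left out, it called 29.2%. The members' promoters were rich in CpG, and this moved with occupancy over the whole genome. Of 8466 protein-coding genes whose promoter had a ratio of observed to expected CpG of 0.6 or more, 43.7% were occupied, against 10.6% of 9026 genes under that ratio. Among the members with such CpG-rich promoters, 31 of 74 (41.9%) were occupied, a share near that background. Against other genes with CpG-rich promoters, the share of the members known to have such promoters was therefore not higher. The 16 members without a known promoter, of which 9 were occupied, could not be placed in this comparison. Exact intervals given here cover counting error only, genes are not replicates, and with 1 list for each genotype no difference was tested.

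No knockout summit lay within 5 kb of an end of any of the 99 genes. Only 4 of all 21887 protein-coding genes (0.0183%) had a knockout summit that near, so a count of 0 says nothing particular about the members. The knockout summit nearest to a member was 214116 bp from Cdk12, followed by those 789936 bp from Ccnf and 919392 bp from Cdc6. No peak of an occupied member overlapped a knockout peak, and neither did nearly all other wild-type peaks, as 3 of the 5775 (0.0519%) did. With only 7 knockout peaks, this does not show that any single member's peak depended on SHP.

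**Figure D1:**
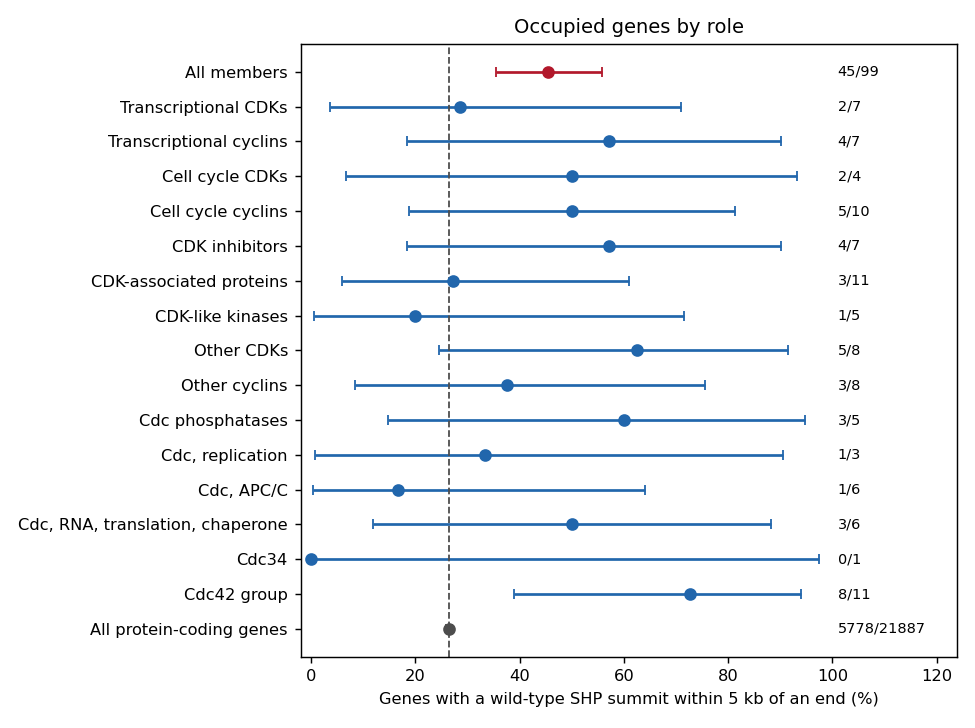
Percentage of genes with a wild-type SHP summit within 5 kb of an end (x axis) for all members, each role and all protein-coding genes (rows). Points are shares, bars are 95% exact binomial intervals, numbers at the right are occupied genes over genes counted, and the dashed line marks the 26.4% of all protein-coding genes. Shares ran from 0 of 1 (Cdc34) to 8 of 11 (Cdc42 group), with wide intervals for every role.

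Transcriptional CDKs and cyclins were occupied at 6 of 14 genes (42.9%, 17.7 to 71.1), 2 of 7 kinases and 4 of 7 cyclins. The same rule called 26.4% of all protein-coding genes. Among the 14 genes, those with CpG-rich promoters were occupied at 5 of 12 (41.7%), against 43.7% of all such genes. Cdk12, the kinase that phosphorylates the tail of RNA polymerase II during elongation, carried the strongest peak of any member. Its enrichment value, the authors' own number for each peak on a scale that is not stated, was 13.8 and its −log10 p was 63.6, which ranked 4 among the 5775 peaks. The peak covered chr11:98202525-98203970. That value was 1.79 times the next highest among members (Cdk16, 7.69) and 2.47 times the members' median. The summit lay 231 bp inside the annotated gene and at -641 bp from the nearest start of the promoter table, and the peak covered that start. Ccnk, which encodes cyclin K, the partner of CDK12 and CDK13, had a value of 5.58 with the summit 49 bp outside the gene. Setd3, a histidine methyltransferase gene, had its own end 86 bp from the same summit, so the Ccnk peak cannot be given to either gene alone. Cdk13, the closest relative of Cdk12, was not occupied, and its nearest summit was 138839 bp away.

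Of the other transcriptional complexes, 3 were occupied at some subunits and not at others, and 1 was not occupied at all. Of the elongation kinase P-TEFb, Ccnt2 had a value of 4.81 with the summit 9 bp inside the gene. Cdk9 and Ccnt1, its kinase and its other T-type cyclin, had their nearest summits 8425 and 24509 bp away. Of the Mediator kinase module, Cdk19 had a value of 4.83 with the summit 235 bp outside the gene, while its relative Cdk8 and their partner Ccnc had summits no closer than 9585 and 7186 bp. Of the splicing-linked group around CDK11, both L-type cyclins were occupied. Ccnl1 had a value of 6.12 and Ccnl2 of 4.65. Their summits lay 3878 and 2285 bp inside the genes as annotated, but only 98 and 15 bp after an annotated start. Cdk11b, their kinase, was just outside the limit, at 5338 bp, and was the nearest member to miss it. Cdk7 and Ccnh, which form the CDK-activating kinase within the general factor TFIIH, were both not occupied, with summits 13368 and 75680 bp away. Within 10 kb of a gene end, 10 of the 14 transcriptional genes had a summit, since Cdk11b, Ccnc, Cdk9 and Cdk8 were then counted, against 30.5% of all genes.

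Cell cycle CDKs and cyclins were occupied at 7 of 14 genes (exact interval 23.0 to 77.0%), against 26.4% of all protein-coding genes. Of all genes with CpG-rich promoters, 43.7% were occupied, and the interval includes both of these shares. Cdk1, the kinase of entry into mitosis, had a value of 6.60 and a −log10 p of 22.3 at chr10:69352269-69353096, with the summit 69 bp inside the gene. Cdk2, the kinase of DNA synthesis, had a value of 5.58 with the summit 108 bp outside. Cdk4 and Cdk6, the partners of the D-type cyclins, were not occupied, with summits 24576 and 1226714 bp away.

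The occupied cell cycle cyclins were those of the D and E types, at 5 of 5 genes, while 0 of 5 genes of the A and B types had a summit within 5 kb. This division was drawn after the values were seen and was not tested. With 5 genes on each side it rests on few genes. At 5 kb, 26.4% of all protein-coding genes were occupied, and 43.7% of those with CpG-rich promoters. Ccnd2 had the highest value, 7.01, with the summit 2952 bp outside the gene. Ccne1 had 6.35 with the summit 20 bp outside, at chr7:38106567-38108184. Ccnd1 had 6.21 with the summit 3642 bp outside. Ccnd3 had 6.06 with the summit 63 bp outside. Its peak was the narrowest of any member at 370 bp, and an end of Taf8 lay 2667 bp away. Ccne2 had the lowest value of these, 4.04, with the summit 1037 bp inside. Within 1 kb only Ccnd3 and Ccne1 of the D- and E-type genes were left, where 20.7% of all genes are counted. The nearest summits to Ccnb1, Ccna2, Ccna1, Ccnb2 and Ccnb3 were 34429, 40198, 54457, 82172 and 842460 bp away.

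**Figure D2:**
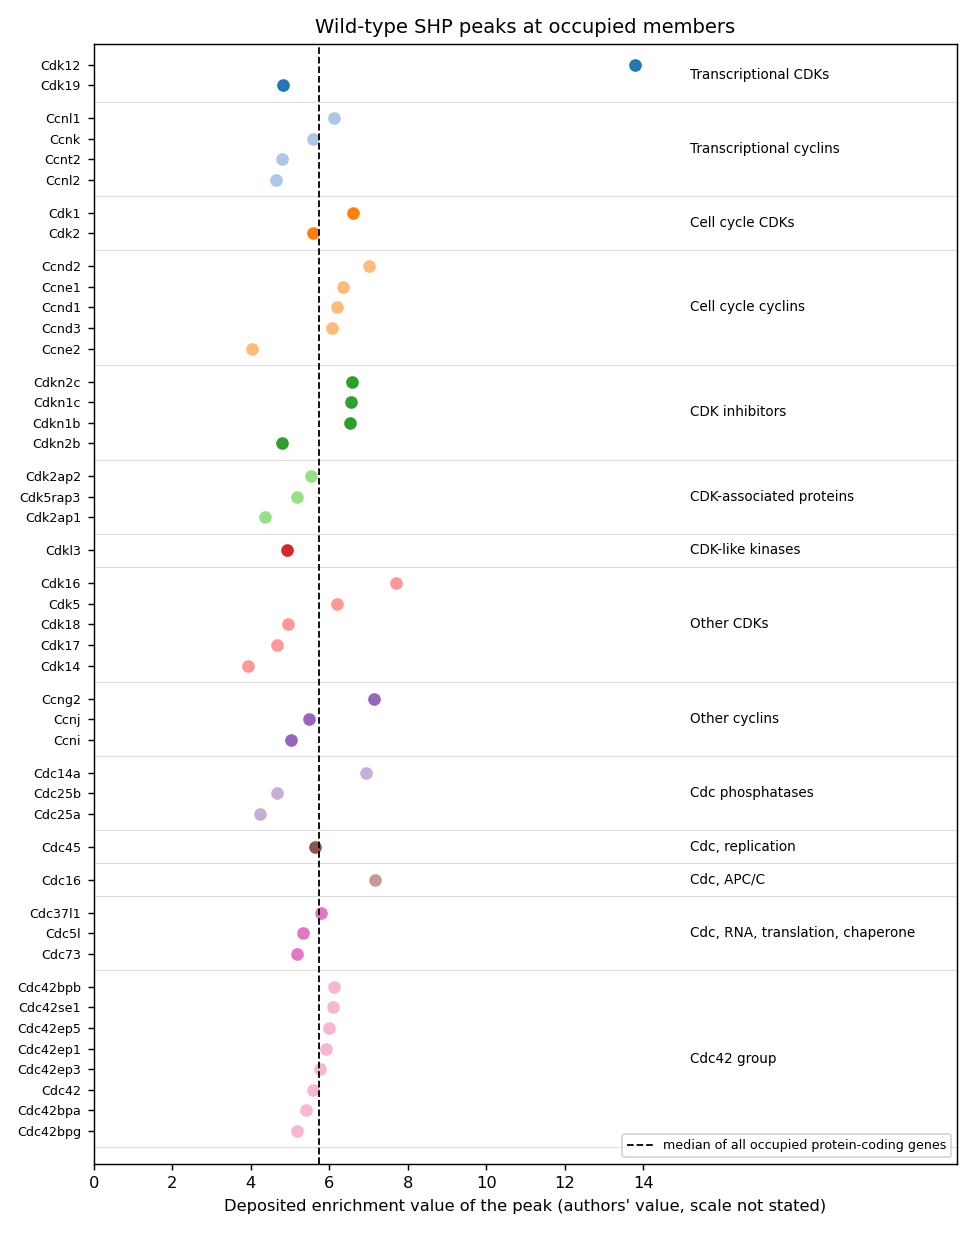
Deposited enrichment value (x axis) of the peak at each of the 45 occupied members, grouped by role from top to bottom. Each point is 1 peak, and the dashed line is the median over all occupied protein-coding genes, 5.73. Cdk12 stands apart at 13.8, and all other members lie between 3.94 and 7.69.

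The promoter sequences of the strongest occupied members of both branches are shown because their peaks covered an annotated start, beside those of Cdk13 and Cdk4, which were not occupied. The last pair was chosen after the values were seen. Each runs 5′ to 3′ along the gene's own strand from 250 bp before the annotated start to 50 bp from it (RefSeq, GRCm38.p6). Capitals mark matches to any of 12 motifs on either strand, which are spelled out in the paragraph on motifs. Ccnd2, Ccnd1, Ccne2 and Cdk19 had no entry in the promoter table.
Cdk12 promoter, chr11:98203055-98203354, plus strand: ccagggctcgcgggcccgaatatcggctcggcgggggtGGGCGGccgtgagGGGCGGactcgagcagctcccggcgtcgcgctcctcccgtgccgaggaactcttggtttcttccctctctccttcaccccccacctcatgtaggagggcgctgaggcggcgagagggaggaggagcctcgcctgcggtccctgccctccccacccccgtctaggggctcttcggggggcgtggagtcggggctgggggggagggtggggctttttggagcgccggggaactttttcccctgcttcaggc
Ccnl1 promoter, chr3:65958200-65958499, minus strand: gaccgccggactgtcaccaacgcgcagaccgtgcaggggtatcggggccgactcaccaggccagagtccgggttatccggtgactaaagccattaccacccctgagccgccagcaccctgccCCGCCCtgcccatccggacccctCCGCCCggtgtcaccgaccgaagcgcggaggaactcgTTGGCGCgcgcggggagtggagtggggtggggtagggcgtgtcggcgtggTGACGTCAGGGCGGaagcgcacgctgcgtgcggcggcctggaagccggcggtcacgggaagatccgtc
Cdk1 promoter, chr10:69352863-69353162, minus strand: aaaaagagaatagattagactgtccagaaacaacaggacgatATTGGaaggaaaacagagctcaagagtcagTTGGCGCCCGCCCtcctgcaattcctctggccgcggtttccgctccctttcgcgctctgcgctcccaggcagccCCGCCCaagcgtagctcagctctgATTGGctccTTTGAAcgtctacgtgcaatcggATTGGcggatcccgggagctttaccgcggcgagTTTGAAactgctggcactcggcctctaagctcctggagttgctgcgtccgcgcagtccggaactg
Ccne1 promoter, chr7:38107441-38107740, minus strand: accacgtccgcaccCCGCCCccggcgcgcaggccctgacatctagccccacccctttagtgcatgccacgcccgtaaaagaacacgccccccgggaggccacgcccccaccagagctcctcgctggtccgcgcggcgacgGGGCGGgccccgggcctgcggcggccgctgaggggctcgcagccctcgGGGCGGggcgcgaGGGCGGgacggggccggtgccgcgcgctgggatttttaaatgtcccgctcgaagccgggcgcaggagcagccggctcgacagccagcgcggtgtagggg
Cdk13 promoter, chr13:17805048-17805347, minus strand: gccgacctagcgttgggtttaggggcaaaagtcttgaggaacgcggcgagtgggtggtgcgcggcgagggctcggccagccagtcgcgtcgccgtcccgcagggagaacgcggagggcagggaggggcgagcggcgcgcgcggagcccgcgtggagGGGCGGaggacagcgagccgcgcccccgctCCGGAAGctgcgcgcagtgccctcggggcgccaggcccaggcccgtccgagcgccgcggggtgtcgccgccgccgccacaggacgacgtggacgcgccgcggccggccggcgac
Cdk4 promoter, chr10:127063285-127063584, plus strand: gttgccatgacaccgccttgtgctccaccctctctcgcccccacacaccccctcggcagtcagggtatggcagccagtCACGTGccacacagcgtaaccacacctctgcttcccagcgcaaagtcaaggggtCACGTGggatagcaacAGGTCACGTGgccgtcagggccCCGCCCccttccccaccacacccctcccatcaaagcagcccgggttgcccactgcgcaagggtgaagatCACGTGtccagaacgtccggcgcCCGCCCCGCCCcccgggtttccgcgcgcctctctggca
The wild-type peak covered all 300 bp of the Cdk12, Ccnl1 and Ccne1 windows and 234 bp of the Cdk1 window. Positions are given for the first base of a match, from 1 at the annotated start and below 0 before it. The window of Cdk1 held letters known from cell cycle promoters, namely TTTGAA at -71 and -15, the reverse complement of CCAAT at -208, -80 and -48, and the E2F letters TTGGCGC at -178. Cdk12 held GC boxes (GGGCGG) at -212 and -199 and no match to the other motifs. Besides GC boxes, Ccnl1 held TTGGCGC at -68 and a CRE, found on both strands, at -18. Ccne1 held GC boxes alone, at -236, -110, -62 and -49. Of the windows without a peak, Cdk13 held a GC box at -94 and an ETS site (CCGGAAG) at -64. Besides GC boxes, Cdk4 held E-boxes (CACGTG) at -172, -118, -98 and -11, and AGGTCA at -102, which overlaps an E-box. These are letter matches and not sites of binding.

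CDK inhibitors were occupied at 4 of 7 genes (57.1%, 18.4 to 90.1), against 26.4% of all protein-coding genes. Of the 4, 3 had nearly the same value. Cdkn2c, an inhibitor of CDK4 and CDK6, had 6.58 with the summit 191 bp outside the gene. Cdkn1c, the imprinted inhibitor of the CIP/KIP family, had 6.56 with the summit 62 bp inside, in the widest peak of any member, 2654 bp. Cdkn1b, which holds cells in quiescence, had 6.52 with the summit 116 bp inside. Cdkn2b, an INK4 inhibitor induced by TGF-beta, had 4.81 with the summit 361 bp inside. Its neighbour Cdkn2a had that same peak as its nearest, 16052 bp away. Cdkn1a, the inhibitor induced by p53, was not occupied (137382 bp), nor was Cdkn2d (23153 bp).

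Other CDKs were occupied at 5 of 8 genes (62.5%, 24.5 to 91.5), against 26.4% of all protein-coding genes. Of these 5, 4 came from the run Cdk14 to Cdk18, relatives that include the kinases activated by cyclin Y. Cdk16 had 7.69 at chrX:20688248-20688773, with the summit 37 bp after an annotated start and 546 bp inside the gene. Cdk5, a kinase best known from neurons, had 6.19 with the summit 6 bp inside, and the end of the anion exchanger gene Slc4a2 lay 180 bp from that summit. Cdk18 had 4.94, Cdk17 had 4.68 and Cdk14 had 3.94, the lowest value of any member, with summits 372 bp inside, 290 bp outside and 188 bp outside. Cdk10, Cdk15 and Cdk20 were not occupied, at 12061, 19693 and 119690 bp. Of the 5 CDK-like kinases, only Cdkl3 was occupied, with 4.93 and the summit 285 bp outside the gene and 3588 bp inside Ube2b.

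Of the remaining cyclins, 3 of 8 were occupied (37.5%, 8.52 to 75.5), against 26.4% of all protein-coding genes. Ccng2, a cyclin that restrains the cell cycle, had 7.14 and a −log10 p of 27.7, the second highest −log10 p of any member, with the summit 77 bp inside the gene. Ccnj had 5.48 with the summit 360 bp inside, and Ccni had 5.02 with the summit 10 bp inside and 33 bp from 2010109A12Rik. Ccng1, which p53 induces, was not occupied (55879 bp), nor were Ccnq (53067 bp), Ccnf (53739 bp), Ccno (186993 bp) and Ccny (732099 bp).

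Proteins that bind CDKs or share their name were occupied at 3 of 11 genes (27.3%, 6.02 to 61.0), near the 26.4% of all protein-coding genes. Cdk2ap2 had 5.54, 104 bp after an annotated start. Cdk5rap3, an adaptor of protein UFMylation, had 5.19 with the summit 67 bp inside. Cdk2ap1, a CDK2-binding protein, had 4.37 with the summit 908 bp inside. The other 8, Cdkn2aipnl, Cdkn2aip, Cdk5rap1, Cdk5r2, Cdk5r1, Cdkn3, Cdkal1 and Cdk5rap2, had their nearest summits from 23221 to 1790750 bp away.

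Among Cdc genes outside the Cdc42 group, 8 of 21 were occupied (38.1%, 18.1 to 61.6), against 26.4% of all protein-coding genes. The phosphatases were occupied at 3 of 5. Cdc14a had 6.94, with the summit 4813 bp inside the gene, the farthest of any occupied member, and 144 bp after an annotated start. Cdc25b and Cdc25a, which activate CDKs by removing inhibitory phosphates, had 4.68 and 4.23 with summits 378 and 491 bp inside. Cdc25c was not occupied at 8111 bp, nor was Cdc14b, whose nearest summit lay 25977 bp inside the gene. That Cdc14b summit, with a value of 5.10, lay 473 bp from an annotated start. The anaphase-promoting complex gene and the replication gene that were counted as occupied shared a summit with another gene whose end was nearer. The Cdc16 summit (7.17) was 3789 bp outside Cdc16 and 685 bp inside Upf3a, a gene of nonsense-mediated decay. The Cdc45 summit (5.64) was 3155 bp outside Cdc45, a part of the replicative helicase, and 445 bp inside Cldn5, a tight junction gene. Cdc20, Cdc27, Cdc23, Cdc20b and Cdc26 were at 23530, 33138, 107926, 172452 and 174950 bp, and Cdc6 and Cdc7, which license and fire replication origins, at 13798 and 267709 bp. Of the Cdc genes that work in RNA processing, transcription or protein folding, Cdc37l1 (an HSP90 cochaperone, 5.80), Cdc5l (a splicing factor, 5.33) and Cdc73 (a PAF complex subunit of elongation, 5.19) were occupied, with summits 89, 19 and 34 bp inside. Cdc37, Cdc123 and Cdc40 were at 8258, 50041 and 419906 bp, and the ubiquitin-conjugating enzyme Cdc34 was at 28977 bp.

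The Cdc42 group was occupied at 8 of 11 genes (72.7%, 39.0 to 94.0), against 26.4% of all protein-coding genes. It had the highest share of any role at the 5 kb limit. Within 1 kb it had 6 of 11 (54.5%), a lower share than the other CDKs (62.5%) and the CDK inhibitors (57.1%), against 20.7% of all genes. Cdc42 is a small GTPase of cell polarity and actin, named after a yeast cell division mutant. Cdc42 itself had 5.58 with the summit 653 bp inside. The 3 Cdc42-binding kinases were all occupied, with 6.12 at Cdc42bpb (1742 bp inside, 147 bp after an annotated start), 5.40 at Cdc42bpa (27 bp outside) and 5.19 at Cdc42bpg (404 bp inside). Cdc42se1, a small effector, had 6.11 with the summit 197 bp inside. Of the 5 effectors of the Cdc42ep family, Cdc42ep5 (5.99), Cdc42ep1 (5.91) and Cdc42ep3 (5.77) were occupied. Cdc42ep5 had its summit 1614 bp outside the gene but 226 bp inside Leng9. Cdc42ep2, Cdc42se2 and Cdc42ep4 were at 71187, 72817 and 922922 bp. Without the Cdc42 group, 37 of 88 members (42.0%, 31.6 to 53.0) were occupied.

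Enrichment values at the members did not lie above those at occupied genes in general. The median over 45 members was 5.58 (interquartile range 4.94 to 6.21), against 5.73 (5.01 to 6.48) over all 5778 occupied genes. Of the members, 12 were under 5, 16 from 5 to 6, 16 from 6 to 8 and 1, Cdk12, above 8. At or above the 75th percentile of all wild-type peaks (6.46) lay 10 of the 45 occupied members, against 1507 of the 5778 occupied genes. Counted over genes with and without a peak, this was 10.1% of the members and 6.89% of all protein-coding genes. For 40 of the 45 peaks, another peak in the list was identical in both enrichment value and −log10 p, so the order of members with close values carries little information. Members' peaks had a median width of 1242 bp, against 1006 bp over the strongest peak of each occupied protein-coding gene and 978 bp over the list.

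Each occupied member had 1 summit within 5 kb, and no summit was shared by 2 members. The summit lay inside the gene at 30 members and outside at 15. It was within 1 kb of a gene end at 34 (75.6%), against 74.5% of all occupied genes by the strongest summit of each. At 13 members (28.9%) another protein-coding gene lay within 5 kb of the same summit, against 45.1% of all occupied genes. With each summit given only to the gene with the nearest end, 42 members were still occupied, against 21.0% of all protein-coding genes, and Cdc16, Cdc45 and Cdc42ep5 were not. When summits anywhere inside the gene were added, 46 members were counted (28.3% of all genes), the added member being Cdc14b. An annotated start was known for 83 members, and 34 of these (41.0%) had a summit within 5 kb of one, against 24.3% of genes with a known start. Of the 45 occupied members, 36 had a known start. At 33 of these (91.7%) the summit was nearer to the 5′ end of the gene, against 83.5% of 4663 occupied genes with a known start, and the exceptions were Cdc16, Cdc45 and Cdc42ep5. The peak covered an annotated start at 31 of 36, and the median distance from summit to start was 120 bp. The summit lay after the start at 27 and before it at 9. No values over all occupied genes stand beside these, so they show no trait particular to the members.

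**Figure D3:**
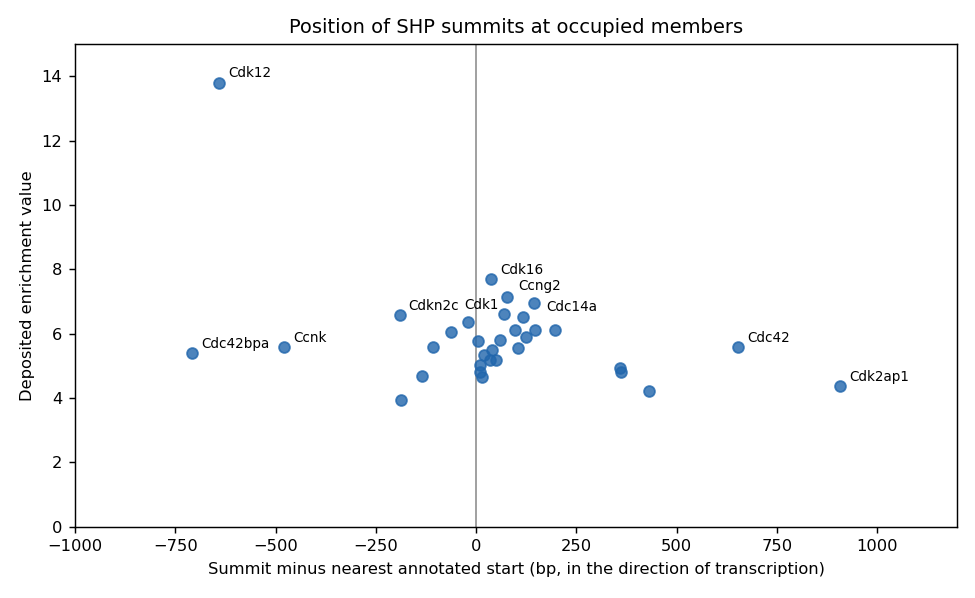
Distance from the nearest annotated start to the summit in bp along the direction of transcription (x axis, 0 is the start) against the deposited enrichment value (y axis) for the 33 occupied members with a summit within 1 kb of a start. Each point is 1 member. In 29 of them the summit lies within 500 bp of the start, and Cdk12 is the exception in value, at -641 bp.

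Promoters of the members had similar base composition whether occupied or not. The median GC content was 61.2% over 36 occupied members and 62.3% over 47 members not occupied, against 63.7% over all occupied genes and 56.3% over all protein-coding genes. The median ratio of observed to expected CpG was 0.845 and 0.852 in these member groups, against 0.810 over all occupied genes and 0.577 over all genes. Median gene lengths were 18378 bp for occupied members, 21774 bp for the others, 22176 bp for all occupied protein-coding genes and 17169 bp for all protein-coding genes.

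Motif matches in these 300-bp windows were counted on both strands. The E2F motif (TTCCCGC or TTGGCGC) was found in 8 of 36 occupied members (22.2%) and 7 of 47 members not occupied (14.9%). It was found in 14.2% of all 4663 occupied genes and 8.84% of all 17492 promoters. The cell cycle genes homology region, CHR (TTTGAA or TTCGAA), was found in 27.8% and 19.1%, against 11.8% of all occupied genes and 18.2% of all. CCAAT was found in 44.4% and 40.4%, against 38.2% of all occupied genes and 39.2% of all. The GC box (GGGCGG) was found in 80.6% and 70.2%, against 46.3% of all and 70.6% of occupied genes. Nuclear receptors are the class of factors through which SHP is best known to reach DNA. The sequence AAGGTCA or AAGGCCA, the letters bound by LRH-1, was found in 3 of 36 occupied members (8.33%) and 3 of 47 members not occupied (6.38%), against 7.14% of all occupied genes and 9.40% of all promoters. AGGTCA, which is contained in AAGGTCA, was found in 8.33% and 8.51%, against 11.0% of all occupied genes and 14.5% of all promoters. The occupied members with the LRH-1 letters were Ccnd3, Ccng2 and Cdc25a. The CRE (TGACGTC) was found in 5 occupied members (13.9%), Ccnl1, Cdc37l1, Cdc42, Cdc5l and Cdkn2b, and in 4.26% of the others. It was found in 6.00% of all occupied genes and 3.98% of all promoters. The ETS motif (CCGGAAG) was found in 13.9% and 25.5%, against 16.9% of all occupied genes and 11.9% of all. The E-box (CACGTG) was found in 2.78% and 10.6%, against 10.9% of all occupied genes and 7.91% of all. ATGGCGG, of YY1, was found in 11.1% and 4.26%, against 8.81% of all occupied genes and 5.44% of all. GCATGCG, of NRF1, was in 0% and 4.26%, against 6.65% of all occupied genes and 4.50% of all. TGAGTCA, of AP-1, was in 0% and 2.13%, against 2.62% of all occupied genes and 4.56% of all. With 36 and 47 promoters these shares rest on few genes and none of the differences was tested.

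**Figure D4:**
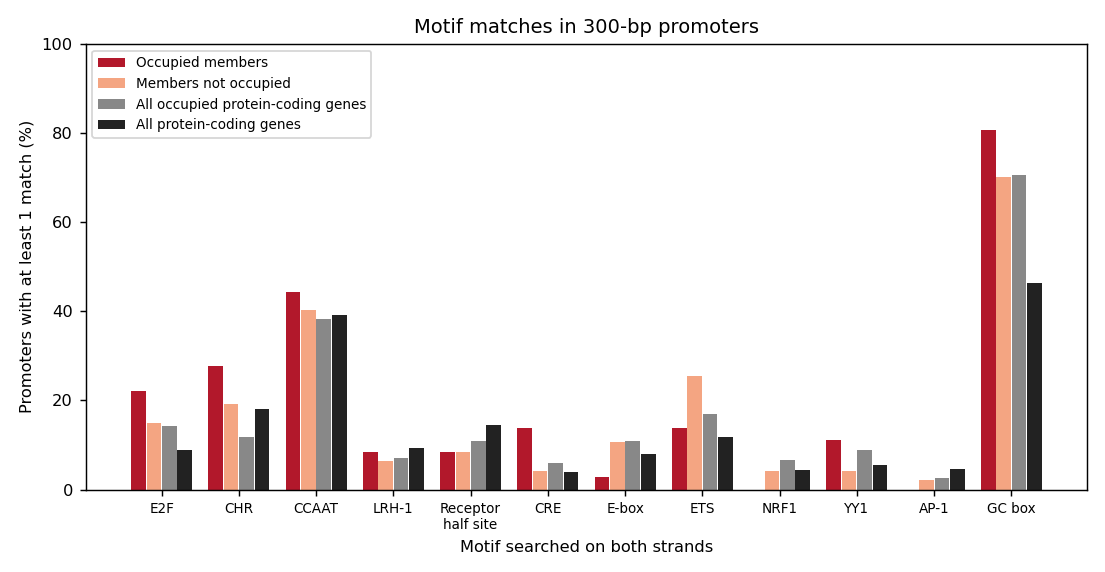
Percentage of 300-bp promoters with at least 1 match (y axis) for each of 12 motifs (x axis) in occupied members (n = 36), members not occupied (n = 47), all occupied protein-coding genes (n = 4663) and all protein-coding genes (n = 17492). GC boxes are the commonest motif in every class, at 80.6% of occupied members and 46.3% of all genes.

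The 54 members without a summit in the 5 kb window were mostly not near misses. Only 6 had a summit from 5 to 10 kb away, 22 from 10 to 50 kb and 26 farther than 50 kb. These distances are to gene ends, and the summit nearest to Cdc14b lay 473 bp from an annotated start. At the limit itself, Cdc14a, Ccnl1 and Cdc16 lay just inside, at 4813, 3878 and 3789 bp with values of 6.94, 6.12 and 7.17. Cdk11b, Ccnc and Cdc25c lay just outside, at 5338, 7186 and 8111 bp with values of 5.40, 5.91 and 5.43.

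Other genes of both branches, outside the name rule, were occupied at similar shares, where 26.4% of all protein-coding genes were occupied. Of 64 cell cycle genes, 25 (39.1%, 27.1 to 52.1) were occupied, with the highest values at Orc2 (7.49), a subunit of the origin recognition complex, E2f4 (6.86), E2f6 (6.71), Mdm2 (6.58), the ubiquitin ligase of p53, and Plk1 (6.55), a mitotic kinase. Of 37 genes of transcription elongation, TFIIH and Mediator, 16 (43.2%, 27.1 to 60.5) were occupied, with the highest values at Supt5 (11.2), Med13l (8.86), Polr2a (6.92), Aff4 (6.60) and Supt4a (6.11). Supt5, the large subunit of the elongation factor DSIF and a substrate of CDK9, ranked 11 in the whole list. Among genes with CpG-rich promoters, 19 of 43 of these cell cycle genes (44.2%) and 14 of 27 of these elongation genes (51.9%) were occupied. The share of all such genes was 43.7%.

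**Figure D5:**
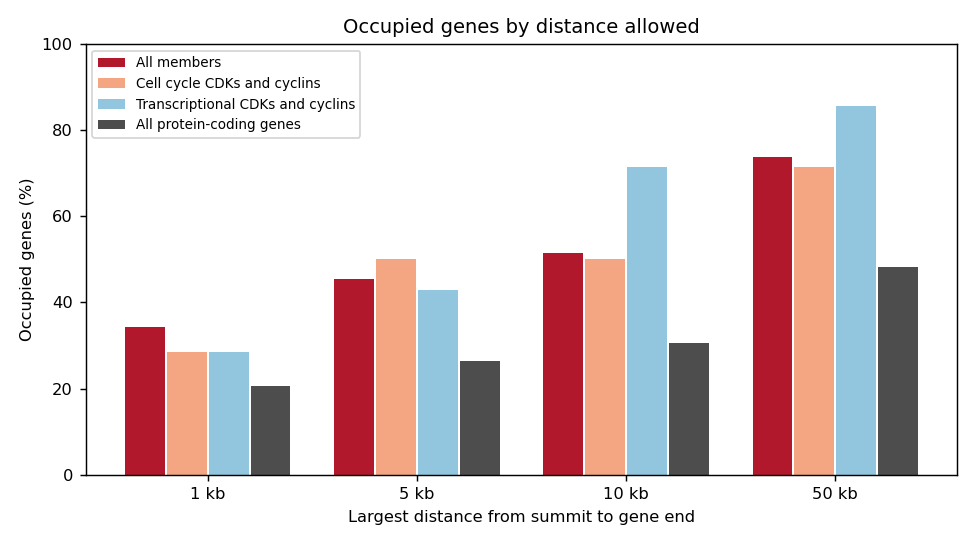
Percentage of genes with a wild-type SHP summit (y axis) when the distance allowed from summit to gene end is 1, 5, 10 or 50 kb (x axis), for all members, cell cycle CDKs and cyclins, transcriptional CDKs and cyclins, and all protein-coding genes. Members go up to 73.7% within 50 kb, where 48.2% of all genes are counted too.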

How the data were processed

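ChIP-seq peak lists were used, 1 for the SHP immunoprecipitation of knockout and 1 of wild-type intestine. The submitters' processing notes name CASAVA 1.4, BWA and mm10. The peak caller, its use of the input and any pooling of sets are stated in neither labels nor headers. Per the file names, the authors deposited the knockout list as overlapping peaks and the wild-type list after an irreproducible discovery rate filter of 0.05. The deposited columns used are an enrichment signal of unstated scale, −log10 p and −log10 q values, a score and the summit offset. The deposited score of members' peaks ran from 546 to 1000. Positions were made 1-based. Summits were assigned to genes with Python 3.11.15 and pandas 2.3.3, using RefSeq gene ends, and exact intervals came from scipy 1.17.1. The assignment was tested on simulated peaks. Starts and sequences came from the RefSeq promoter table, which held 83 of the 99 members, and the outermost start was used for motifs. Every occupied member is named. Of the CDKs, cyclins and inhibitors without a summit, each is given with its distance. Members, role lists and motifs were chosen with earlier results of these data known. Of the listed names, Cdk3 and Cdc34b are pseudogenes in this annotation and Cdk2ap1rt was not matched, so they were not counted. No test was made, as 1 list for each genotype was used and no replicate lists were analysed here. Alternatives changed the distance, peak threshold, assignment and member rule.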

Additional observations from a re-analysis of the deposited data

How the results depend on the processing

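The count of occupied members stayed within 1.5 times of 45 with a summit within 1 or 10 kb, any base of the peak, gene bodies, the nearest gene only, annotated starts and both changes of the member rule. Within 50 kb it was 73 members, 12 transcriptional CDKs and cyclins, 40 other cell cycle genes and 28 other elongation genes, where 48.2% of all genes are counted. Keeping only peaks whose −log10 p reached the list median (14.8), it was 28 members (28.3%, against 14.8% of all genes), 4 cell cycle CDKs and cyclins, 12 other cell cycle genes and 7 other elongation genes. At the 75th percentile of enrichment it was 10 members (10.1%, against 6.89% of all genes), 2 cell cycle and 1 transcriptional CDKs and cyclins, 5 other cell cycle genes and 4 other elongation genes. These thresholds keep fewer peaks by construction. Within 1 kb 4 of 14 cell cycle CDKs and cyclins were left (28.6%, against 20.7% of all genes), and 10 transcriptional ones were counted within 10 kb (30.5% of all genes). Near annotated starts 4 of the 10 cell cycle CDKs and cyclins with a known start were occupied (40.0%, against 24.3% of genes with a known start). Among CpG-rich promoters, a restriction chosen after the data were seen, it was 3 of 9 (33.3%), against 43.7% of all such genes. Both of these counts leave out Ccnd1, Ccnd2 and Ccne2, which were occupied, and Ccna2, which was not, as they had no known start. Of the genes with a known start, only Ccnd3, with a ratio of 0.577, was left out for its CpG content. No paired analysis was possible because each genotype had 1 list and no replicate numbers, and no replicate could be left out. Members' own values changed only within 50 kb, at 15 of 45 genes. Read depth is unknown, so a missing peak may reflect depth or filter, which was not tested.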

Other observations

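The lists of cell cycle genes outside the name rule can be read by complex, a description drawn after the values were seen, with 3 to 8 genes in each and no test. Over all protein-coding genes 26.4% were occupied, and 43.7% of those with CpG-rich promoters. Of the E2F factors, 6 of 8 were occupied, with values from 3.80 to 6.86. The retinoblastoma family had 0 of 3. Of the origin recognition complex, 5 of 6 genes were occupied (4.09 to 7.49), while of the MCM helicase loaded at the same origins 1 of 6 was, Mcm7 with 4.96. GINS had 1 of 4, Gins2 with 4.41, a share near that of all genes. Other subunits of the anaphase-promoting complex had 4 of 7 (3.92 to 6.39), and mitotic kinases and spindle checkpoint genes had 2 of 8, Plk1 (6.55) and Ttk (5.04), also near it.

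The genes around RNA polymerase II were read by complex in the same way, without a test. They stand beside the 26.4% of all protein-coding genes and the 43.7% of those with CpG-rich promoters. TFIIH had 3 of 8 genes occupied (3.74 to 6.07), without the CDK-activating kinase pair described above. Other subunits of the PAF complex had 2 of 5, Paf1 (5.73) and Rtf1 (3.70). The pausing factor NELF had 0 of 4. Other subunits of the Mediator kinase module had 2 of 4, Med13l (8.86) and Med13 (4.08).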
